A study of Danio rerio with 16 samples.

Results

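The genes described here are ankrd1 (ENSDARG00000075263) and 9 named genes of the Hippo-YAP pathway and its CCN targets: yap1, wwtr1, tead1a, tead3a, ccn1, ccn2a, lats2, amotl2a and amotl2b. They were chosen by name, with earlier results of these data known, and all were found in the table of 14500 genes. The reference table gives the name TEAD3 to a pair of identifiers without saying which is the a copy, so both are described, and the 10 names correspond to 11 genes. The identifiers of amotl2a (ENSDARG00000061923) and ccn2a (ENSDARG00000042934) carry the family name without a suffix, while their b copies have identifiers of their own. The identifier of ccn2b, another named ANKRD1 and another named TEAD1 were not in the table, so those copies are not described. The sources used here do not say which zebrafish copy of ankrd1 ENSDARG00000075263 is.

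Hippo signalling is a kinase cascade that restrains the transcriptional coactivators YAP (yap1) and TAZ (wwtr1). The LATS kinases phosphorylate both proteins and keep them out of the nucleus, and the angiomotin family can hold them in the cytoplasm or at cell junctions. Unphosphorylated YAP and TAZ enter the nucleus and bind TEAD transcription factors at target genes, which in mammalian cells include ANKRD1, CCN1, CCN2, LATS2 and AMOTL2. The protein of ankrd1 is a nuclear and sarcomeric ankyrin-repeat protein of stressed heart muscle, and CCN proteins are secreted matricellular proteins. The cascade acts largely on protein phosphorylation and location, which transcript levels do not report.

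RNA sequencing had been run on whole hearts of adult zebrafish aged 6 to 9 months, and the series compares the response to heart injury with and without telomerase. The KO groups carried the tert mutation hu3430, labelled AB/hu3430, a nonsense point allele of the gene that encodes the telomerase reverse transcriptase. The 4 groups were KO hearts 3 days after cryoinjury, KO control hearts, WT hearts 3 days after cryoinjury and WT control hearts, with 4 libraries each and 3 pooled hearts per library. Cryoinjury kills part of the ventricle with a cold probe, so an injured heart holds dead, inflamed and spared tissue together. The labels call the 4 libraries of a group biological replicates, and no agent other than the injury is named.

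The libraries held 5611576 to 14831664 reads over the listed genes, and values are normalized units in which 1 read is worth 0.06 to 0.1961 units. The tert transcript stood at 5.65 to 6.84 units in the 8 KO libraries and at 1.19 to 5.16 units in the 8 WT libraries, and because the allele is a point mutation these reads do not show whether the protein is lost. Cardiomyocyte markers were abundant in every library, and none of the 9 was at 0. Their summed level was 38178 to 53135 units in KO cryoinjury and 61885 to 77254 in KO control hearts, and 40879 to 43737 in WT cryoinjury and 72315 to 82968 in WT control hearts, with 8 of 9 lower after injury in each genotype. Epicardial and fibroblast markers summed to 2870 to 3873 units in KO cryoinjury and 612 to 764 in KO control hearts, and to 3311 to 3567 in WT cryoinjury and 540 to 1000 in WT control hearts, with 7 of 8 higher after injury in each genotype. Macrophage and neutrophil markers had 4 of 5 higher in each genotype, endothelial markers 2 of 6 higher in each genotype with 2 lower in KO and 1 in WT, smooth muscle markers 2 of 5 higher in each genotype with 0 lower in KO and 3 in WT, and red blood cell markers 0 of 3 called. By the same test 25.2% of all genes were higher and 22.4% lower in KO, and 24.2% higher and 21.7% lower in WT. The higher endothelial markers were the identifiers named cldn5, while tie1 was lower in each genotype. Skin and epithelial markers had 2 of 5 higher in KO and 1 of 5 in WT, and 1 of them was at 0 in at least 1 library. The skin keratin krt5, chosen after its values were seen, read 337, 887, 12 and 75.4 units in KO cryoinjury libraries 1 to 4 and 4.68 to 67.4 in all others. In such whole-heart libraries, fewer cells of a type and less RNA per cell cannot be told apart, and the part of these cell type markers in the results below was not tested.

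After cryoinjury, ankrd1, ccn2a and tead1a were higher than in control hearts in both genotypes, and lats2 was lower in both. The genes amotl2a and amotl2b (both lower) passed the test in KO hearts, and ccn1 (higher) and tead3 ENSDARG00000063649 (lower) in WT hearts. By limma on log2(value + 1) over all 14500 genes, with a Benjamini-Hochberg adjusted p under 0.05 as threshold, 3 of the 11 genes rose and 3 fell in KO hearts. In the same comparison 25.2% of all genes rose and 22.4% fell. In WT hearts 4 of the 11 rose and 2 fell, beside 24.2% of all genes that rose and 21.7% that fell. The shares of the 11 are near those of all genes in each comparison. The median log2 change of the 11 was 0.03 in KO and 0.13 in WT, against -0.02 and -0.01 over all genes.

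The coactivator genes yap1 and wwtr1, the second tead3 gene, and in one genotype each ccn1, amotl2a, amotl2b and the first tead3 gene, did not pass the injury test. Scaling to library totals instead of the authors' factors raised the median log2 change of all genes by 0.21 in KO and 0.32 in WT, and then 5 of the 11 genes rose and 1 fell in KO, and 6 rose and 0 fell in WT. Under that scaling 36.7% of all genes rose and 10.6% fell in KO, and 45% rose and 8.46% fell in WT. The split of all genes thus moved the same way. Library totals carry no correction for the composition of a library, unlike DESeq2 size factors. With those size factors in limma the median log2 change of all genes was -0.02 in KO and -0.01 in WT. Without KO cryoinjury libraries 1 and 2, those with the highest krt5, 2 genes rose and 2 fell in KO, beside 20.4% of all genes that rose and 17.1% that fell.

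**Figure D1:**
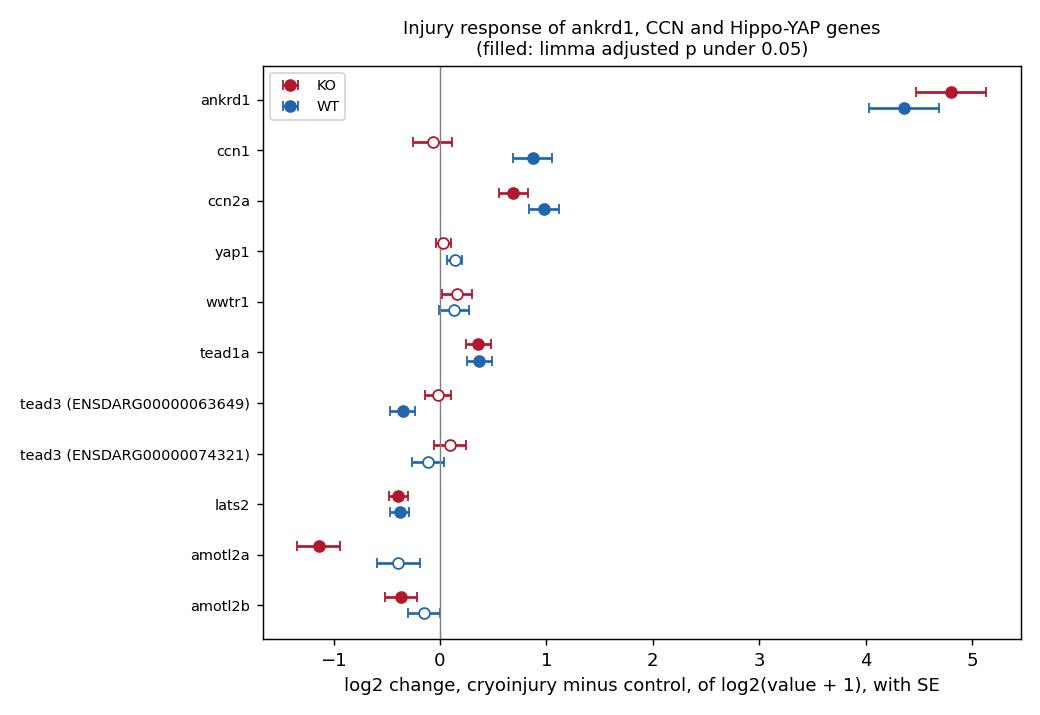
Log2 change after cryoinjury (cryoinjury minus control, on the log2(value + 1) scale) of each gene in KO (red) and WT (blue) hearts, with the standard error as bars and filled points where the limma adjusted p was under 0.05. The gene ankrd1 lies at 4.80 in KO and 4.36 in WT, and every other gene lies between -1.14 and 0.98.

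The largest change among the 11 genes was in ankrd1. In KO hearts it stood at 71.4, 29.1, 73.8 and 131 units in cryoinjury libraries 1 to 4, against 2.85, 0.404, 1.22 and 1.96 units in control libraries 1 to 4. In WT hearts it stood at 79.3, 87.9, 72.0 and 73.7 units after cryoinjury, against 3.36, 2.24, 2.96 and 2.95 units in control hearts. Every injured library thus lay far above every control library of both genotypes. The KO means were 76.2 ± 41.7 units after cryoinjury and 1.61 ± 1.04 in control hearts (SD, n = 4 each), a ratio of 47.4. The WT means were 78.2 ± 7.16 units after cryoinjury and 2.88 ± 0.466 in control hearts (SD, n = 4 each), a ratio of 27.2. On the log2(value + 1) scale ankrd1 rose by 4.80 in KO hearts (SE 0.33, limma adjusted p = 8.42e-09) and by 4.36 in WT hearts (SE 0.33, limma adjusted p = 2.44e-08).

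The size of the ankrd1 change rests on its low control level, which came from 3 to 19 reads per KO control library and 17 to 23 per WT control library. With a pseudocount of 10 in place of 1 the log2 change was 2.76 in KO and 2.77 in WT, and by edgeR on the recovered reads it was 5.60 in KO and 4.77 in WT. In order of mean level the groups ran WT cryoinjury, KO cryoinjury, WT control and KO control. Neighbours in that order did not pass the test within either condition, with a KO minus WT difference of -0.22 between injured hearts (SE 0.33, limma adjusted p = 0.849) and of -0.66 between control hearts (SE 0.33, limma adjusted p = 0.353).

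In injured KO hearts ankrd1 had the highest SD in units of the 4 groups, though relative to the mean KO control hearts varied more. Its lowest injured KO library, number 2 at 29.1 units, was also the library with the highest krt5, while number 4, at 131 units, was its highest. Without KO cryoinjury libraries 1 and 2 the log2 change in KO was 5.34, the KO minus WT difference after injury became 0.33 (limma adjusted p = 0.743), and the difference between the responses to injury was 0.99 (limma adjusted p = 0.394), against 0.44 with all libraries (SE 0.47, limma adjusted p = 0.843).

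**Figure D2:**
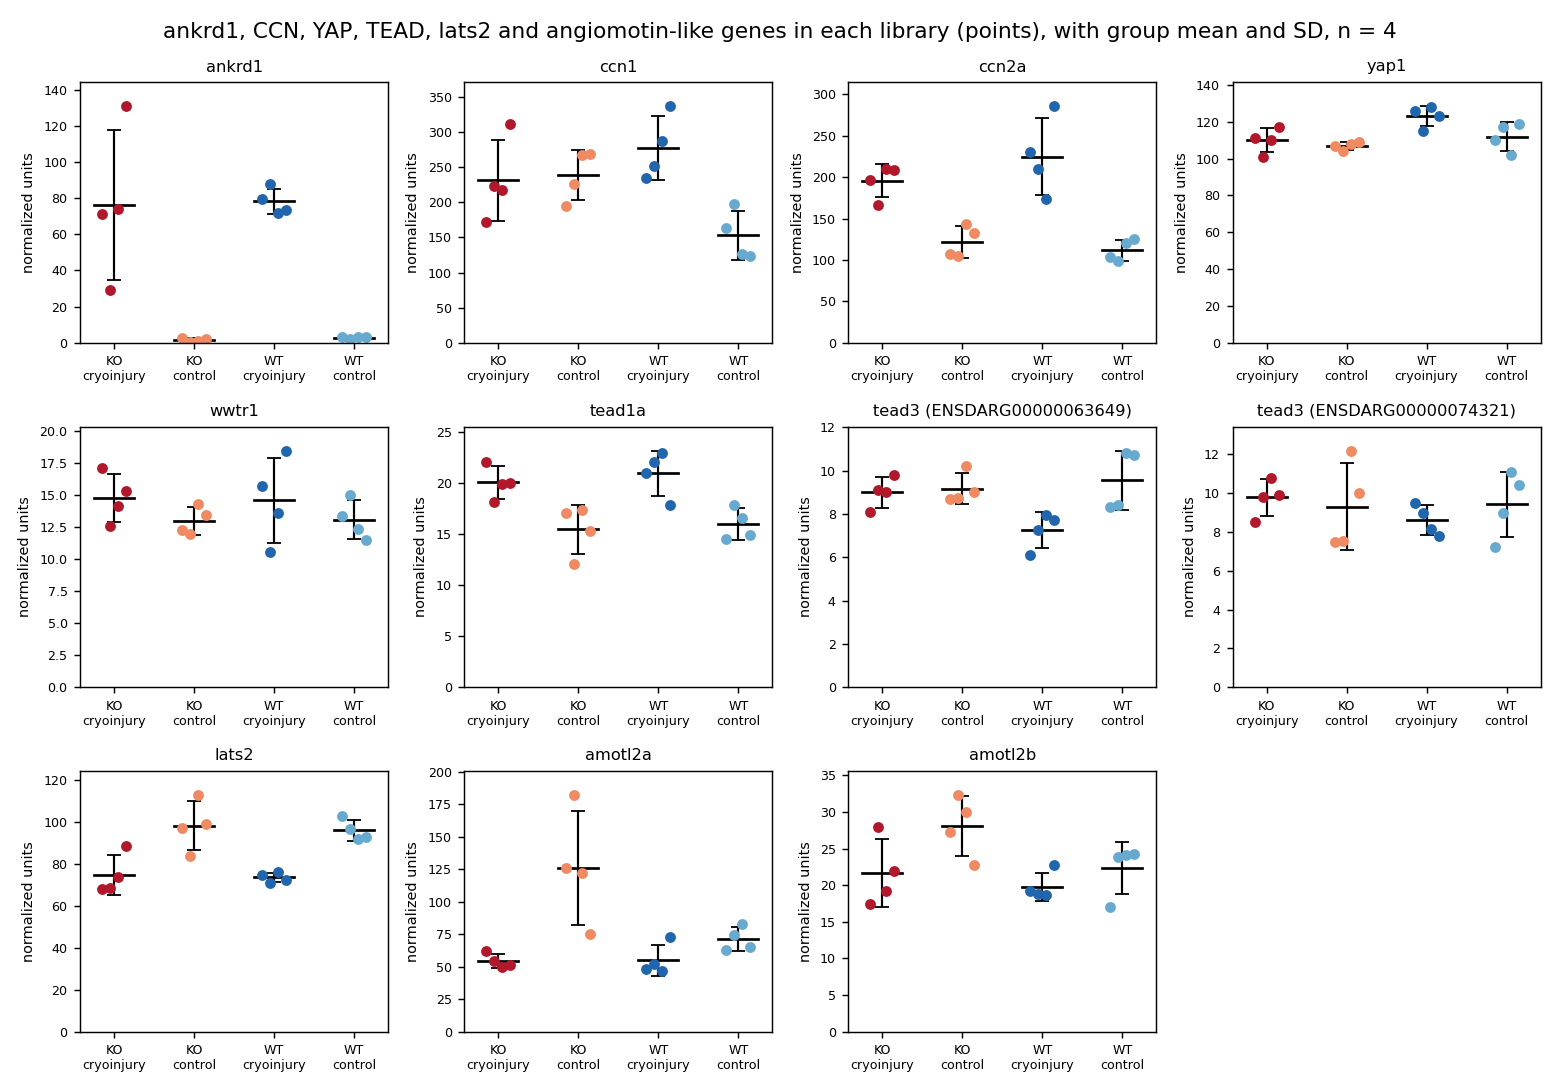
Normalized units of each gene in every library (points, libraries 1 to 4 from left to right) in KO cryoinjury, KO control, WT cryoinjury and WT control hearts, with the group mean and SD (n = 4). In ankrd1 the KO cryoinjury libraries spread from 29.1 to 131 units and the WT cryoinjury libraries from 72.0 to 87.9, and ccn1 is lowest in WT control hearts.

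The patterns of 10768 genes with a symbol that is not a placeholder were compared with that of ankrd1, and the 5 most like it were taken. Likeness was the root mean square difference of log2(value + 1) after centring each gene, over the 16 libraries. Of these, 4 are named here: txnb (a thioredoxin, difference 0.607), sall1 (ENSDARG00000075891, a zinc finger factor, 0.652), adamtsl7 (a secreted ADAMTS-like protein, 0.693) and myof (ENSDARG00000006112, myoferlin, 0.737). The gene ranked 6th lay at 0.741 and the median gene at 2.37. These 4 were low in control hearts, as ankrd1 was, and had log2 changes of 3.60 to 4.84 in KO and 3.81 to 4.71 in WT. They were picked for likeness over these same libraries, so like changes follow from the choice. In control hearts sall1 averaged 0.0827 units in KO and 0.109 in WT, and adamtsl7 0.432 and 0.481. These means lie under the 1.76 units that the 4th highest library of each gene reached, so both genes were in the table through injured libraries. In injured KO hearts txnb, for instance, averaged 96.2 ± 9.24 units, against 2.40 ± 0.244 in KO control hearts. The likeness depends on the pseudocount, since 4 of the 5 genes remained among the 5 nearest with a pseudocount of 0.5 and 1 of them with 10, alternatives chosen after the data were seen.

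Of the CCN genes, ccn2a was higher after injury in both genotypes, and ccn1 passed the test in WT hearts. For ccn1, a secreted matricellular protein that binds integrins, KO hearts held 172, 223, 217 and 311 units after cryoinjury, against 194, 226, 267 and 269 units in control hearts. WT hearts held 234, 251, 287 and 337 units after cryoinjury, against 164, 197, 127 and 123 units in control hearts. The KO libraries of both conditions overlapped, while every injured WT library lay above every WT control library. In KO hearts the means were 231 ± 58.1 and 239 ± 36.0 units (cryoinjury and control, SD, n = 4 each) and the log2 difference was -0.07 (SE 0.18, limma adjusted p = 0.77). In WT hearts the means were 277 ± 45.6 and 153 ± 35.0 units (cryoinjury and control, SD, n = 4 each), and ccn1 rose by 0.87 (SE 0.18, limma adjusted p = 0.000633).

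The difference between the genotypes in that response was not past the threshold once all genes were counted. The interaction for ccn1 was -0.94 (SE 0.25, unadjusted p = 0.0016, limma adjusted p = 0.384), and it lay between -1.09 and -0.81 with any 1 library left out, with an adjusted p of 0.237 to 0.577. The ccn1 log2 difference in KO hearts was 0.17 with library totals and 0.13 without KO cryoinjury libraries 1 and 2, both short of the threshold.

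For ccn2a, the connective tissue growth factor gene, KO hearts held 197, 167, 210 and 209 units after cryoinjury, against 107, 105, 143 and 133 units in control hearts. WT hearts held 231, 210, 174 and 286 units after cryoinjury, against 104, 98.3, 121 and 125 units in control hearts. Injured and control libraries did not overlap in either genotype. Mean levels were 196 ± 19.9 and 122 ± 19.0 units in KO hearts (cryoinjury and control) and 225 ± 46.9 and 112 ± 12.7 in WT hearts (SD, n = 4 each). The gene rose by 0.69 in KO (SE 0.14, limma adjusted p = 0.000585) and by 0.98 in WT (SE 0.14, limma adjusted p = 1.66e-05), and the interaction was -0.30 (SE 0.20, limma adjusted p = 0.721). Both calls held with any single library left out.

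Within the same library, the log2 distance of ccn1 over ccn2a was 0.21 ± 0.35 after cryoinjury and 0.97 ± 0.11 in control KO hearts (SD, n = 4 each). The KO libraries of the injured and control groups did not overlap in this distance. The difference of -0.76 had a 2-sided exact permutation p of 0.0286, the smallest that 4 against 4 libraries can give, and 0.0715 after adjustment over 10 such tests, so it did not pass. A p at this floor can pass only if most of the 10 tests reach it. The adjusted value therefore could not decide whether this pair moved apart. In WT hearts the distance was 0.31 ± 0.29 after cryoinjury and 0.42 ± 0.48 in control hearts (exact permutation p = 0.743, adjusted 0.826).

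**Figure D3:**
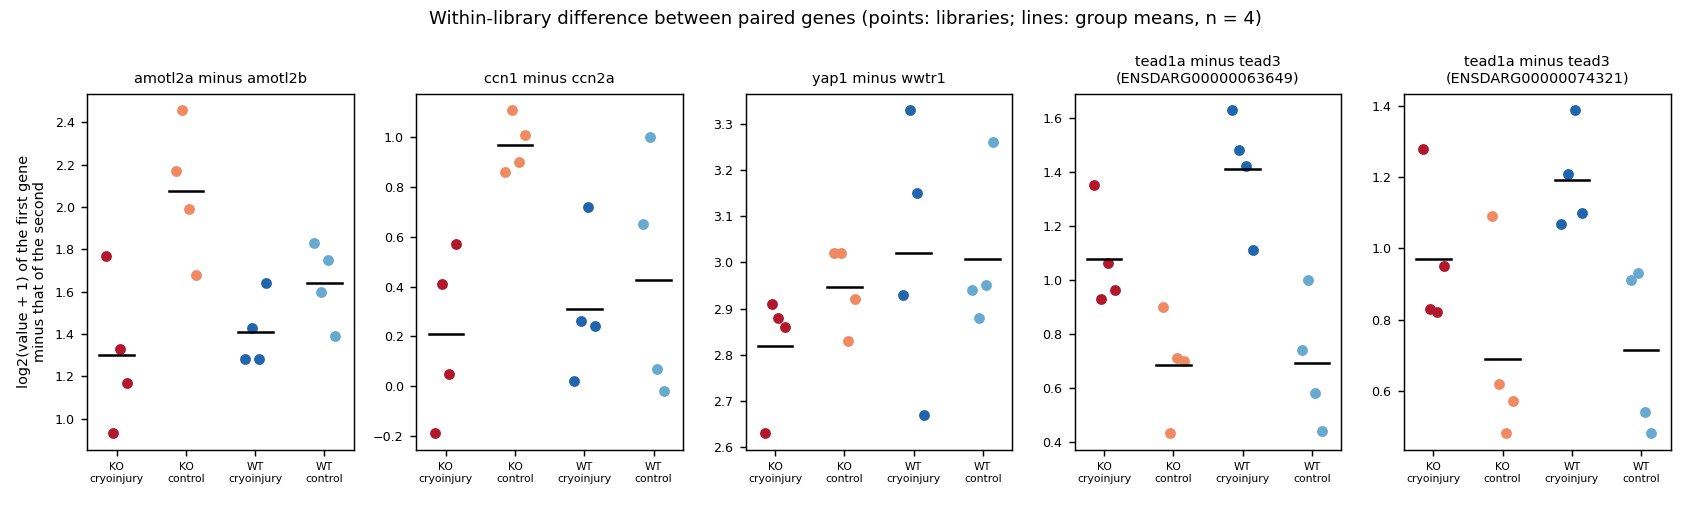
Log2(value + 1) of the first gene minus that of the second in each library (points) for 5 pairs, in KO cryoinjury, KO control, WT cryoinjury and WT control hearts, with the group mean as a line (n = 4) and a separate vertical scale for each pair. For ccn1 minus ccn2a the KO control libraries lie between 0.86 and 1.11 and the KO cryoinjury libraries between -0.19 and 0.57.

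Neither coactivator transcript passed the injury test in either genotype. For yap1, KO hearts held 111, 101, 110 and 117 units after cryoinjury, against 107, 104, 108 and 109 in control hearts. WT hearts held 126, 115, 128 and 123 units after cryoinjury, against 110, 117, 102 and 119 in control hearts. All 16 libraries thus lay between 101 and 128 units, and the groups overlapped in each genotype. The log2 change was 0.03 in KO (SE 0.07, limma adjusted p = 0.711) and 0.14 in WT (SE 0.07, limma adjusted p = 0.113). The yap1 KO minus WT difference after cryoinjury was -0.17 (SE 0.07, limma adjusted p = 0.331), with 3 of 4 KO libraries below every WT library. For wwtr1, the TAZ gene, the KO libraries ranged from 12.6 to 17.1 units after cryoinjury and 12.0 to 14.3 in control hearts, and the WT libraries from 10.6 to 18.5 after cryoinjury and 11.5 to 15.0 in control hearts. Its log2 change was 0.16 in KO (SE 0.14, limma adjusted p = 0.362) and 0.13 in WT (SE 0.14, limma adjusted p = 0.498).

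Both coactivators passed the injury test when reads were scaled to library totals. Then yap1 was higher by 0.27 in KO (limma adjusted p = 0.00427) and 0.49 in WT (limma adjusted p = 1.46e-05), and wwtr1 by 0.39 in KO (limma adjusted p = 0.0354) and 0.46 in WT (limma adjusted p = 0.0125). The median log2 change of all genes was 0.2 in KO and 0.31 in WT under that scaling. The within-library distance of yap1 over wwtr1, which no scaling changes beyond the pseudocount, differed between cryoinjury and control by -0.13 in KO (exact permutation p = 0.171, adjusted 0.214) and 0.01 in WT (exact permutation p = 0.943, adjusted 0.943).

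Of the TEAD genes, which encode the DNA-binding partners of YAP and TAZ, tead1a was higher after injury in both genotypes. KO hearts held 22.1, 18.2, 19.9 and 20.0 units after cryoinjury, against 17.1, 12.1, 17.4 and 15.3 in control hearts. WT hearts held 21.0, 22.1, 23.0 and 17.9 units after cryoinjury, against 14.5, 17.9, 16.6 and 14.9 in control hearts. The KO groups did not overlap, and the WT groups met at 17.9 units. The gene rose by 0.36 in KO (SE 0.12, limma adjusted p = 0.0172) and by 0.37 in WT (SE 0.12, limma adjusted p = 0.0155). The KO call ended without KO cryoinjury library 1 (0.32, limma adjusted p = 0.0521), without KO control library 2 (0.26, limma adjusted p = 0.0667) and without KO cryoinjury libraries 1 and 2 together (0.36, limma adjusted p = 0.0665).

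The tead3 genes rested on 41 to 130 reads per library. For tead3 ENSDARG00000063649, KO hearts held 8.08, 9.11, 9.01 and 9.80 units after cryoinjury, against 8.71, 8.75, 10.2 and 9.02 in control hearts. WT hearts held 6.10, 7.27, 7.95 and 7.73 units after cryoinjury, against 8.31, 8.43, 10.8 and 10.7 in control hearts. The injured WT libraries all lay below the WT control libraries and below the injured KO libraries, and the KO groups overlapped. It differed by -0.02 in KO (SE 0.12, limma adjusted p = 0.88) and fell by 0.35 in WT (SE 0.12, limma adjusted p = 0.0217), with an interaction of 0.33 (SE 0.17, limma adjusted p = 0.64). The WT call ended without WT cryoinjury library 1 (-0.28, limma adjusted p = 0.0809), WT control library 3 (-0.29, limma adjusted p = 0.0728) or WT control library 4 (-0.30, limma adjusted p = 0.0693), with a fit of just the 8 WT libraries (-0.35, limma adjusted p = 0.0507) and with library totals (-0.03, limma adjusted p = 0.834).

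The other tead3 gene, ENSDARG00000074321, averaged 9.78 ± 0.948 units after cryoinjury and 9.31 ± 2.25 in control KO hearts, and 8.60 ± 0.774 after cryoinjury and 9.42 ± 1.69 in control WT hearts (SD, n = 4 each). Its groups overlapped, with log2 differences of 0.09 in KO (limma adjusted p = 0.67) and -0.11 in WT (limma adjusted p = 0.598). Within libraries, tead1a gained on tead3 ENSDARG00000063649 by 0.39 in KO and 0.72 in WT, and on ENSDARG00000074321 by 0.28 in KO and 0.48 in WT. The exact permutation p was 0.0286 in each of these tests except 0.171 for ENSDARG00000074321 in KO, and the adjusted values were 0.0715, and 0.214 for that exception, so none passed. Those at 0.0286 were at the smallest p possible, and the limit given above for ccn1 and ccn2a holds for them too.

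Among the 11 genes, lats2, amotl2a and amotl2b encode inhibitors of YAP and TAZ, and LATS2 and AMOTL2 are also among the mammalian targets named above. In each genotype these genes were lower after injury or did not pass the test. For lats2, a kinase that phosphorylates both coactivators, KO hearts held 68.3, 68.4, 74.1 and 88.5 units after cryoinjury, against 97.4, 84.0, 113 and 99.2 in control hearts. WT hearts held 74.8, 71.2, 76.3 and 72.5 units after cryoinjury, against 103, 96.7, 91.9 and 92.9 in control hearts. The WT groups were apart, and in KO 1 injured library lay within the control range. The gene fell by 0.39 in KO (SE 0.09, limma adjusted p = 0.00248) and by 0.38 in WT (SE 0.09, limma adjusted p = 0.0031). By edgeR the change was -0.39 in KO (edgeR adjusted p = 0.00319) and -0.38 in WT (edgeR adjusted p = 0.00335). With library totals the changes were -0.16 in KO (limma adjusted p = 0.125) and -0.02 in WT (limma adjusted p = 0.817), and without KO cryoinjury libraries 1 and 2 the KO change was -0.27 (limma adjusted p = 0.0624).

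The gene amotl2a encodes an angiomotin-like junction protein that binds YAP. KO hearts held 61.8, 54.5, 49.7 and 51.0 units after cryoinjury, against 126, 182, 122 and 75.3 in control hearts. WT hearts held 48.0, 52.2, 46.6 and 72.5 units after cryoinjury, against 62.8, 74.2, 83.1 and 64.9 in control hearts. The injured groups of both genotypes lay at like levels, with means of 54.2 ± 5.40 units in KO and 54.8 ± 12.0 in WT, while the control means were 126 ± 43.6 in KO and 71.3 ± 9.35 in WT (SD, n = 4 each). It fell by 1.14 in KO hearts (SE 0.20, limma adjusted p = 0.000131), with no overlap, and differed by -0.39 in WT hearts (SE 0.20, limma adjusted p = 0.118). The difference between the responses was -0.76 (SE 0.28, unadjusted p = 0.014, limma adjusted p = 0.528). In WT the change passed with only the 8 WT libraries in the fit (-0.39, limma adjusted p = 0.0449), without WT cryoinjury library 4 (-0.53, limma adjusted p = 0.0427) and without KO control library 4 (-0.39, limma adjusted p = 0.0429).

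Its paralog amotl2b held 17.4, 28.0, 19.2 and 22.0 units in KO hearts after cryoinjury, against 27.3, 32.3, 30.0 and 22.7 in KO control hearts. In WT hearts it held 19.2, 18.8, 18.6 and 22.7 units after cryoinjury, against 17.0, 23.9, 24.1 and 24.2 in control hearts. The groups overlapped in both genotypes. It fell by 0.37 in KO (SE 0.15, limma adjusted p = 0.0474) and differed by -0.15 in WT (SE 0.15, limma adjusted p = 0.428). The KO call was just inside the threshold and ended by edgeR (adjusted p = 0.0505), with library totals (-0.14, limma adjusted p = 0.48), with the 8 KO libraries alone (limma adjusted p = 0.073) and without any 1 of 12 libraries (limma adjusted p up to 0.15, without KO cryoinjury library 1). Within libraries amotl2a lost on amotl2b by -0.77 in KO (exact permutation p = 0.0571, adjusted 0.114) and -0.23 in WT (exact permutation p = 0.143, adjusted 0.214).

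Between genotypes none of the 11 genes passed the test. By limma 0 of 11 were called in control hearts, where 1.48% of all genes were, and 0 of 11 after cryoinjury, where 0.441% of all genes were. At an unadjusted p under 0.05 there were 3 of the 11 in control hearts, beside 15.9% of all genes, and 2 after cryoinjury, beside 12.2%. By edgeR 0 of the 11 were called in each, beside 1.21% of all genes in control hearts and 0.579% after cryoinjury. By DESeq2 2 were called in control hearts, both higher in KO, and 0 after cryoinjury, beside 2.8% and 1.48% of all genes in these comparisons.

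The largest positive KO minus WT differences in control hearts were those of amotl2a and ccn1, each with 3 of 4 KO libraries above every WT library. For amotl2a the difference was 0.76 (SE 0.20, unadjusted p = 0.00118, limma adjusted p = 0.0626), and it passed by DESeq2 (0.83, adjusted p = 0.00519), with genes of a mean of at least 10 units only (0.76, limma adjusted p = 0.0493) and without KO control library 4 (0.98, limma adjusted p = 0.00435). For ccn1 the difference was 0.66 (SE 0.18, unadjusted p = 0.00173, limma adjusted p = 0.0738). It passed by DESeq2 (0.65, adjusted p = 0.0262), with library totals (0.71, limma adjusted p = 0.0405), without WT control library 2 (0.79, limma adjusted p = 0.0339) and without KO cryoinjury library 4 (0.66, limma adjusted p = 0.047). For amotl2b it was 0.33 (SE 0.15, limma adjusted p = 0.293), and ccn2a differed by 0.11 (SE 0.14, limma adjusted p = 0.751).

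In the same control hearts, tcf21, an epicardial and fibroblast factor, was higher in KO, at 28.9 ± 3.10 units against 18.3 ± 1.65 in WT (SD, n = 4 each; log2 difference 0.63, limma adjusted p = 0.0158), as 1 of 8 markers of its list. The rest of that list was not called and mostly differed the other way. The log2 difference was 0.30 for tbx18 and 0.24 for pdgfra. It was -0.30 for wt1b, -0.17 for aldh1a2, -0.37 for postn, -0.26 for col1a1a and -0.21 for col1a2. The elastin gene elnb of the smooth muscle and bulbus list was lower in KO, at 44.8 ± 15.9 units against 91.7 ± 14.5 in WT (SD, n = 4 each; log2 difference -1.06, limma adjusted p = 0.0243), as 1 of 5 markers. The part of these markers in the ccn1 and amotl2a values was not tested.

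After cryoinjury the KO minus WT differences of the 11 genes ran from -0.28 for ccn1 (limma adjusted p = 0.569) to 0.28 for tead3 ENSDARG00000063649 (limma adjusted p = 0.34). The injured KO libraries of that tead3 gene all lay above the injured WT libraries. How many of all genes were apart in that way was not counted. The lowest interaction was that of ccn1 and the highest that of ankrd1, given above. For the interaction 0 of 11 genes were called, as were 0% of all 14500, with 2 of the 11 and 1191 of all genes (8.21%) at an unadjusted p under 0.05. By edgeR 0 genes were called (1205 at an unadjusted p under 0.05) and by DESeq2 20 (0.138%), none of them among the 11.

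**Figure D4:**
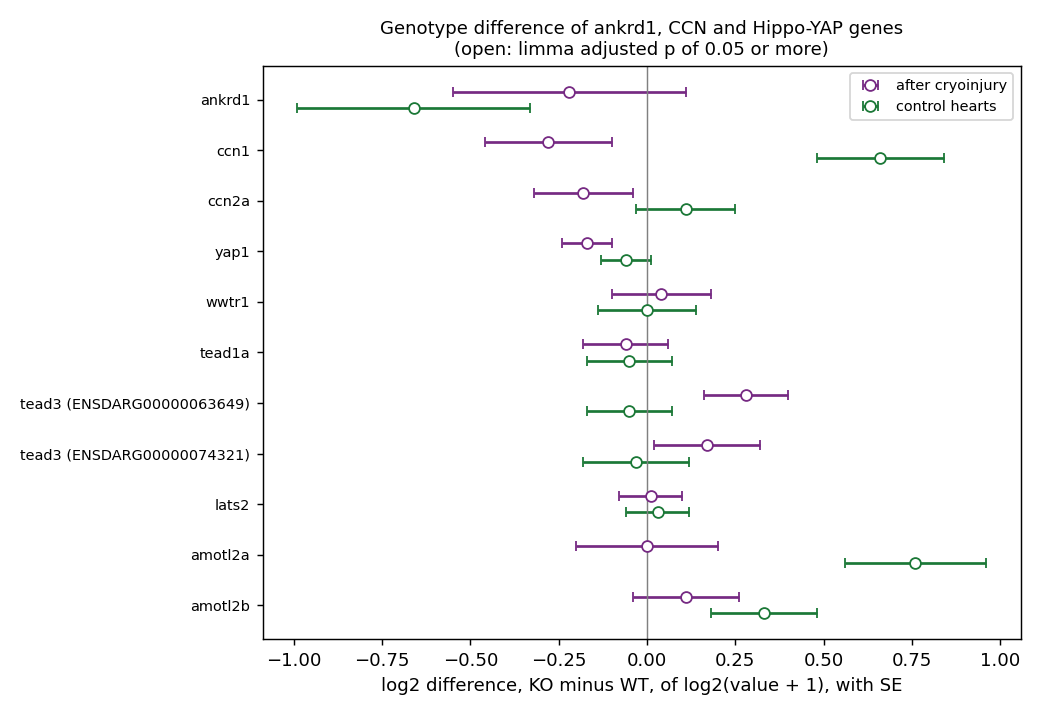
KO minus WT difference of each gene on the log2(value + 1) scale after cryoinjury (purple) and in control hearts (green), with the standard error as bars. All points are open, for a limma adjusted p of 0.05 or more, and the control-heart values of amotl2a (0.76) and ccn1 (0.66) lie farthest to the right.

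The rest of the pathway was described from 6 lists of 107 names. The table held 60 genes under these names, since some names matched more than 1 gene. Of the 60, 49 were not among the 11 genes. In KO hearts 10 of the 49 rose and 6 fell (32.7% called), and in WT hearts 11 rose and 10 fell (42.9% called). Over all genes 47.6% were called in KO and 45.9% in WT, so with the authors' scaling the shares of the 49 were not above the background. Their median log2 change was 0.08 in KO and 0.07 in WT. With library totals 18 rose and 3 fell in KO, beside 36.7% and 10.6% of all genes, which also moved upward under that scaling. In WT 28 of the 49 then rose, a larger share than the 45% of all genes, and 3 fell, beside 8.46%. Without KO cryoinjury libraries 1 and 2, 13 rose and 5 fell in KO, beside 20.4% and 17.1% of all genes. No gene of the 49 was called between genotypes or in the interaction by limma, with 7 at an unadjusted p under 0.05 in control hearts, 7 after cryoinjury and 3 in the interaction, beside 15.9%, 12.2% and 8.21% of all genes. By edgeR 0 were called in these 3 comparisons, and by DESeq2 1 in control hearts, 1 after cryoinjury and 0 in the interaction.

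Of the other genes known as YAP targets in mammalian cells, 5 of 13 rose and 3 fell in KO hearts, and 6 rose and 3 fell in WT hearts. Over all genes 25.2% rose and 22.4% fell in KO, and 24.2% rose and 21.7% fell in WT. The share called in either direction was 61.5% in KO and 69.2% in WT, above the 47.6% and 45.9% of all genes. The names myof and asap1 each stand for a pair of identifiers among the 13, and no set test was run. The median log2 change of these 13 was 0.20 in KO and 0.43 in WT. Both genes named for myoferlin, a ferlin of membrane repair, rose most. The gene myof ENSDARG00000006112 held 33.2, 62.2, 54.7 and 44.2 units in KO hearts after cryoinjury, against 3.00, 2.29, 3.20 and 2.35 in KO control hearts. In WT hearts it held 71.7, 57.5, 64.3 and 47.5 units after cryoinjury, against 4.42, 1.45, 5.02 and 3.37 in control hearts. Injured libraries were far apart from control libraries in both genotypes. Its log2 change was 3.71 in KO (SE 0.24, limma adjusted p = 3.17e-09) and 3.81 in WT (SE 0.24, limma adjusted p = 3.23e-09), and that of myof ENSDARG00000017128 was 3.32 in KO (limma adjusted p = 6.7e-09) and 3.07 in WT (limma adjusted p = 1.63e-08).

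The matrix protein gene ccdc80 averaged 72.7 ± 6.15 units after cryoinjury and 28.7 ± 4.16 in control KO hearts, and 90.2 ± 12.1 after cryoinjury and 36.8 ± 3.40 in control WT hearts (SD, n = 4 each). It rose by 1.32 in KO (limma adjusted p = 6.54e-08) and 1.27 in WT (limma adjusted p = 9.67e-08). The genes that fell in both genotypes were rbms3, an RNA-binding protein, by 0.53 in KO (limma adjusted p = 0.00169) and 0.85 in WT (limma adjusted p = 1.95e-05), and nt5e, an ectonucleotidase, by 0.61 in KO (limma adjusted p = 0.00148) and 0.74 in WT (limma adjusted p = 0.000247). The third was tgfb2, a ligand of the TGF-beta family, by 0.33 in KO (limma adjusted p = 0.012) and 0.40 in WT (limma adjusted p = 0.00343), and its calls ended with library totals (-0.09 in KO and -0.04 in WT). The tgfb2 call in KO also ended without KO cryoinjury library 2 (-0.24, limma adjusted p = 0.0504).

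**Figure D5:**
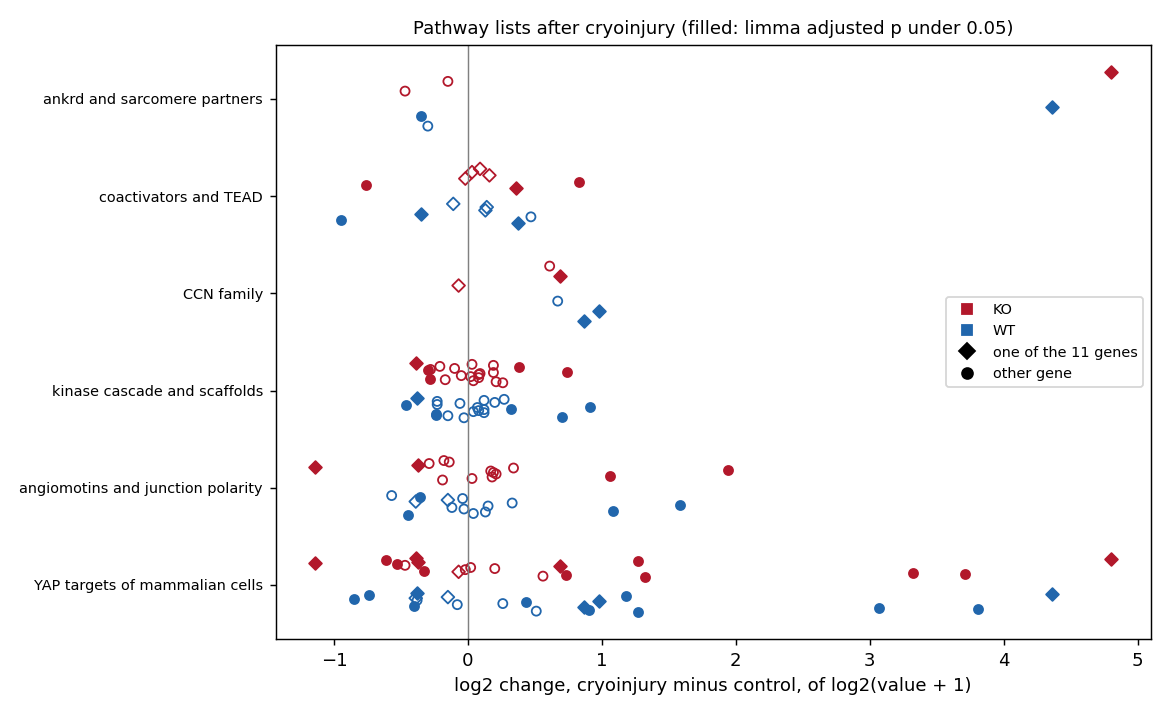
Log2 change after cryoinjury (cryoinjury minus control, on the log2(value + 1) scale) of every list gene in the table, by list, in KO (red) and WT (blue) hearts, with the 11 genes as diamonds, the other list genes as circles and filled symbols for a limma adjusted p under 0.05. Genes named in 2 lists appear in each. Beyond ankrd1, the circles farthest to the right are the myof genes, at 3.07 to 3.81.

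In the kinase cascade and its scaffolds, 2 of 19 other genes rose and 2 fell in KO, and 3 rose and 3 fell in WT. These are 21.1% called in KO and 31.6% in WT, below the 47.6% and 45.9% of all genes. The kinase gene taok3, whose family activates the Hippo kinases in flies and mammals, held 20.6, 25.9, 21.5 and 19.5 units in KO hearts after cryoinjury, against 11.9, 13.1, 12.0 and 13.7 in KO control hearts. In WT hearts it held 23.6, 25.5, 26.1 and 29.0 units after cryoinjury, against 12.9, 12.1, 12.1 and 16.6 in control hearts. The groups were apart in both genotypes, and taok3 rose by 0.74 in KO (SE 0.11, limma adjusted p = 4.69e-05) and 0.91 in WT (SE 0.11, limma adjusted p = 4.33e-06). The merlin gene nf2b differed by 0.09 in KO (limma adjusted p = 0.366) and rose in WT (0.32, limma adjusted p = 0.00248), and with library totals it passed in KO too (0.32, limma adjusted p = 0.00363).

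Genes of the cascade that fell by smaller amounts were wwc3, of the KIBRA family, by 0.30 in KO (limma adjusted p = 0.0178) and 0.46 in WT (limma adjusted p = 0.00089), and mob1ba, a LATS adaptor, by 0.28 in KO (limma adjusted p = 0.0203) and 0.24 in WT (limma adjusted p = 0.0418). The scaffold gene sav1 differed by -0.17 in KO (limma adjusted p = 0.147) and fell in WT (-0.24, limma adjusted p = 0.0466). These calls did not hold under the scaling without composition correction. With library totals none of them passed, at -0.07 and -0.11 for wwc3 in KO and WT, -0.05 and 0.10 for mob1ba, and 0.06 and 0.11 for sav1, so that mob1ba in WT and sav1 in both changed sign. Leaving out a library also ended the calls of mob1ba in each genotype (limma adjusted p up to 0.0684 in KO and 0.137 in WT), of sav1 in WT (up to 0.13) and of wwc3 in KO (0.056 without KO cryoinjury library 2 and 0.064 without KO control library 4).

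Of 12 other angiomotin and junction polarity genes, 2 rose and 0 fell in KO, and 2 rose and 2 fell in WT. These are 16.7% called in KO and 33.3% in WT, below the 47.6% and 45.9% of all genes. The Crumbs gene crb2b averaged 11.4 ± 3.37 units after cryoinjury and 2.27 ± 0.960 in control KO hearts, and 12.1 ± 2.49 after cryoinjury and 3.34 ± 0.598 in control WT hearts (SD, n = 4 each). It rose by 1.94 in KO (SE 0.23, limma adjusted p = 3.15e-06) and 1.58 in WT (SE 0.23, limma adjusted p = 2.43e-05). The polarity gene llgl1 rose by 1.06 in KO (SE 0.15, limma adjusted p = 2.63e-05) and 1.08 in WT (SE 0.15, limma adjusted p = 1.97e-05). The polarity scaffold scrib differed by -0.19 in KO (limma adjusted p = 0.0862) and fell in WT (-0.45, limma adjusted p = 0.000355), and amot, the angiomotin gene itself, differed by -0.14 in KO (limma adjusted p = 0.226) and fell in WT (-0.36, limma adjusted p = 0.0039). With library totals the changes were 0.04 in KO and -0.10 in WT for scrib, and 0.09 in KO and -0.01 in WT for amot, and none of these passed.

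The small lists held few measured genes. Of the TEAD cofactors of the vestigial-like family, vgll3 fell in both genotypes, by 0.76 in KO (SE 0.20, limma adjusted p = 0.00472) and 0.95 in WT (SE 0.20, limma adjusted p = 0.000881). Its means were 2.24 and 4.50 units in injured and control KO hearts and 1.21 and 3.45 in injured and control WT hearts. The vgll3 values of injured libraries came from 11 to 24 reads each in both genotypes. In injured WT libraries they were 1.04 to 1.44 units, under the 1.76 units that the 4th highest library of each gene reached. The related vgll2b rose in KO (0.83, SE 0.29, limma adjusted p = 0.0244), with overlapping groups, and was 0.47 in WT (limma adjusted p = 0.191), where it passed with library totals (0.77, limma adjusted p = 0.0269). Its KO call ended with a fit of just the 8 KO libraries (limma adjusted p = 0.0597) and without KO cryoinjury library 1, 3 or 4 or KO control library 1 or 2 (limma adjusted p up to 0.094, at 0.60, without KO cryoinjury library 4). The actin-associated palld, among the sarcomere and actin partners listed with ankrd1, differed by -0.15 in KO (limma adjusted p = 0.186) and fell in WT (-0.35, limma adjusted p = 0.00476), and with library totals the change was 0.08 in KO and 0.01 in WT, neither past the threshold. The CCN gene ccn4 was measured and did not pass, at 0.61 in KO and 0.67 in WT. Its unadjusted limma p was under 0.05 in each genotype, and its adjusted p was not.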

How the data were processed

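Polyadenylated RNA of pooled hearts had been sequenced after preparation with the TruSeq RNA v2 kit, per the labels' protocols. The deposited table holds a normalized signal made by the authors, with 1 column per library, and how the signal was scaled is not given in the labels or the file header. Genome build Zv9, RSEM 1.2.3, cutadapt and CASAVA 1.8.2 are named, with no role, per the submitters' processing notes. Each library's values were whole multiples of 1 step (100% of them, within 0.01 read), and division by it gave reads. Low genes had been left out, since the 4th highest library of each gene held at least 1.76 units.

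Symbols matched 11702 of the 14500 identifiers. limma 3.58.1 (R 4.3.3) with an intensity trend was fitted to log2(value + 1) of the 4 group means over 16 libraries, leaving 12 residual degrees of freedom and adding 5.12 prior ones, and p-values were adjusted over all genes by the Benjamini-Hochberg method. The log2(value + 1) scale understates changes of low genes. The 4 fixed pairs of related genes became 5, since tead1a was set against both tead3 genes. Close gene copies may share reads, and the kit does not mark strand. Levels of different genes were not compared, since transcript lengths were not used here.

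The 11 genes, lists and tests were chosen with earlier results of these data known. Named list genes were those with the smallest injury p, up to 3 per list and direction among genes called in either genotype. Some genes the naming rules took are left out of the text. The fits were tested on simulated data. Alternatives were edgeR 4.0.16 and DESeq2 1.42.0 on recovered reads, other scalings, pseudocounts of 0.5 and 10, a filter at a mean of 10 units, fits of the compared groups, a replicate block and leaving out libraries. Libraries of a group differed by more than sampling noise, so none was a copy of another.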

Additional observations from a re-analysis of the deposited data

Results flagged for a closer look

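In 4 of 120 groups of 4 libraries, over 30 genes named in the text, 1 library stood apart from the other 3 of its group, and chance gives about 1 such group in 20. Among the 11 genes both cases were in amotl2b. WT cryoinjury library 4 held 22.7 units of amotl2b, with the other 3 at 18.6 to 19.2, and WT control library 1 held 17.0 units, with the others at 23.9 to 24.2. The WT groups overlap through WT control library 1. In KO control library 4 ccdc80 stood at 34.9 units, with the others at 26.0 to 27.0. In KO cryoinjury library 2, which also had the highest krt5, tgfb2 stood at 231 units, with the others at 286 to 297.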

How the results depend on the processing

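Injury calls among the 11 genes numbered 6 in each genotype. They ranged from 4 to 6 in KO and from 5 to 7 in WT with 1 library left out. Calls over all 14500 genes then ranged from 6115 to 6995 in KO and from 6009 to 6679 in WT. By edgeR there were 5 in KO and 6 in WT, beside 6763 and 6741 of all 14500 genes. Without KO cryoinjury libraries 1 and 2 there were 4 in KO, beside 5446 of all genes. The split by direction depended on the library scaling, as given above. Genotype calls in control hearts among the 11 were 0, and 2 by DESeq2 and 1 with library totals. They were 1 with genes of a mean of at least 10 units, and 0 to 1 with 1 library left out. Over all 14500 genes such calls were 215, and 406 by DESeq2 and 191 with library totals. They were 246 of 8222 genes with that filter, and 76 to 361 with 1 library left out. Among the 49 list genes they were 0, and 1 by DESeq2, 1 with the replicate block and 1 without KO cryoinjury libraries 1 and 2. With 1 library left out they were 0 to 1. Over all genes there were 289 with the replicate block and 274 without KO cryoinjury libraries 1 and 2. After cryoinjury the 49 had 1 call by DESeq2 and 0 to 2 with 1 library left out. All genes had 215 by DESeq2 and 19 to 84 with 1 library left out.

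Values that changed sign were all short of the threshold where they did so, and their cause was not tested. With library totals these were, for KO minus WT in control hearts, tead1a 0.002, tead3 ENSDARG00000063649 0.0045, tead3 ENSDARG00000074321 0.03 and wwtr1 0.05, and after cryoinjury amotl2a -0.06, lats2 -0.05 and wwtr1 -0.02, with an interaction of -0.07 for wwtr1. For injury they were ccn1 0.17, tead3 ENSDARG00000063649 0.19, palld 0.08, sav1 0.06, scrib 0.04 and amot 0.09 in KO, and amotl2b 0.19, tead3 ENSDARG00000074321 0.22, palld 0.01, mob1ba 0.10 and sav1 0.11 in WT. The amotl2a difference after cryoinjury was -0.02 by edgeR and DESeq2 and -0.00019 with DESeq2 size factors. The ankrd1 interaction was -0.02 with a pseudocount of 10. Without KO cryoinjury libraries 1 and 2, the difference after cryoinjury was 0.33 for ankrd1 and -0.10 for amotl2a, the KO injury change 0.13 for ccn1, 0.03 for tead3 ENSDARG00000063649 and 0.01 for palld, and the lats2 interaction 0.11.

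With 1 library left out, differences after cryoinjury ranged from -0.07 to 0.14 for amotl2a, -0.02 to 0.20 for amotl2b, -0.53 to 0.18 for ankrd1, -0.07 to 0.05 for lats2 and -0.10 to 0.15 for wwtr1. Differences in control hearts ranged from -0.04 to 0.10 for lats2, -0.11 to 0.05 for tead1a, -0.10 to 0.01 for tead3 ENSDARG00000063649, -0.15 to 0.06 for tead3 ENSDARG00000074321 and -0.06 to 0.06 for wwtr1. The KO injury change ranged from -0.22 to 0.06 for ccn1 and -0.06 to 0.02 for tead3 ENSDARG00000063649. Interactions ranged from -0.10 to 0.06 for lats2, -0.11 to 0.05 for tead1a and -0.10 to 0.15 for wwtr1.

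Replicate numbers were not taken to pair the libraries, since correlations of deviations were not all over 0.1 for any number (lowest -0.0539). Their medians were 0.0113 to 0.0807 for same-numbered libraries and -0.0225 for others, and 19 of 48 comparisons matched best with their own number, a hint from the data and not the design. With the replicate block 6 of the 11 genes were called in each genotype, beside 6956 of all 14500 genes in KO and 6707 in WT. Depth limits ankrd1 in control hearts most, at 3 to 23 reads per library.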
